A study of Homo sapiens with 6 samples.

Results

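The genes described here are those of human chromosome 13 in 2 clones of HCA-7, an established human colorectal cancer cell line. All genes that the RefSeq table of GRCh38 places on chromosome 13 were taken if a probe set of the array carried their symbol and no other. Each gene was read from its brightest such probe set and kept if its mean log2 value over the 6 arrays was at least 5. Apart from these limits, 1 gene was left out by name. This gave 200 genes of the 12317 genes tested in all, and 200 further genes of the chromosome lay below a mean of 5. The chromosome was chosen because its genes were lower in the spiky clone in these same arrays, so every spiky minus cystic value of the 200 genes is a description and not a test.

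In type-1 collagen HCA-7 cells form colonies of 2 shapes, and a clone of each shape was grown in 3D collagen: the spiky clone SC1 and the cystic clone CC3. Neither clone is labelled with a treatment or an engineered genotype. RNA of each clone was hybridised to Affymetrix U133 Plus 2.0 arrays at days 5, 10 and 15, so that each of the 6 arrays is the only one of its clone and day. A colony shape is represented by 1 clone throughout, and clone and colony shape cannot be told apart. Nothing in the labels says whether the 3 days of a clone came from separate cultures, so the p-values cannot be read as measuring spread between cultures. They rest on the spread left among these 6 arrays once clone and day are fitted, with 2 residual degrees of freedom. The deposited values are log2 signals, with a median of 5.18 to 5.34 per array, so that the lower limit of 5 lies close to an array's middle. In such bulk RNA, fewer cells of a type and less RNA per cell cannot be told apart.

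Chromosome 13 carries tumour suppressors such as RB1, the retinoblastoma protein that restrains entry into S phase, beside genes that are often gained in colorectal cancer, among them KLF5, a transcription factor of intestinal crypt cells, and CDK8, the kinase of the Mediator complex. Gain of a part or the whole of this chromosome is one of the frequent DNA copy number changes of colorectal tumours, and a change in the copies of a chromosome commonly moves the RNA of many of its genes by a similar amount. DNA copy number was not analysed here.

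Of the 200 genes, 188 had a negative spiky minus cystic difference and 12 lay at or above 0. The median difference was -0.69 on the log2 scale, which is 1.61-fold lower in spiky colonies, with quartiles of -0.85 and -0.45 and a range of -1.55 to 0.58. Genes of the other chromosomes had a median of -0.03 (n = 12116). The spread among the chromosome 13 genes, with an interquartile range of 0.40, was near the 0.33 of the genes elsewhere, so that the whole distribution sat lower rather than a few genes of it. Chromosome 21 had a median of -0.59 over 136 genes, and the other 21 chromosomes had medians between -0.18 and 0.07. In the limma fit 127 of the 200 genes (63.5%) passed an adjusted p of 0.05 as lower in spiky colonies and 0 as higher, beside 7.74% lower and 3.65% higher of all genes tested. At an unadjusted p under 0.05, 155 were lower and 2 higher, beside 1876 lower and 1135 higher of all 12317 genes tested. In 115 genes (57.5%) all 3 spiky arrays lay below all 3 cystic arrays, beside 10.1% of all genes tested, and in 0 genes the reverse, beside 5.5%. These counts follow from how the chromosome was chosen. Without the spiky day 5 array or without the cystic day 5 array, 74 genes passed as lower.

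**Figure D1:**
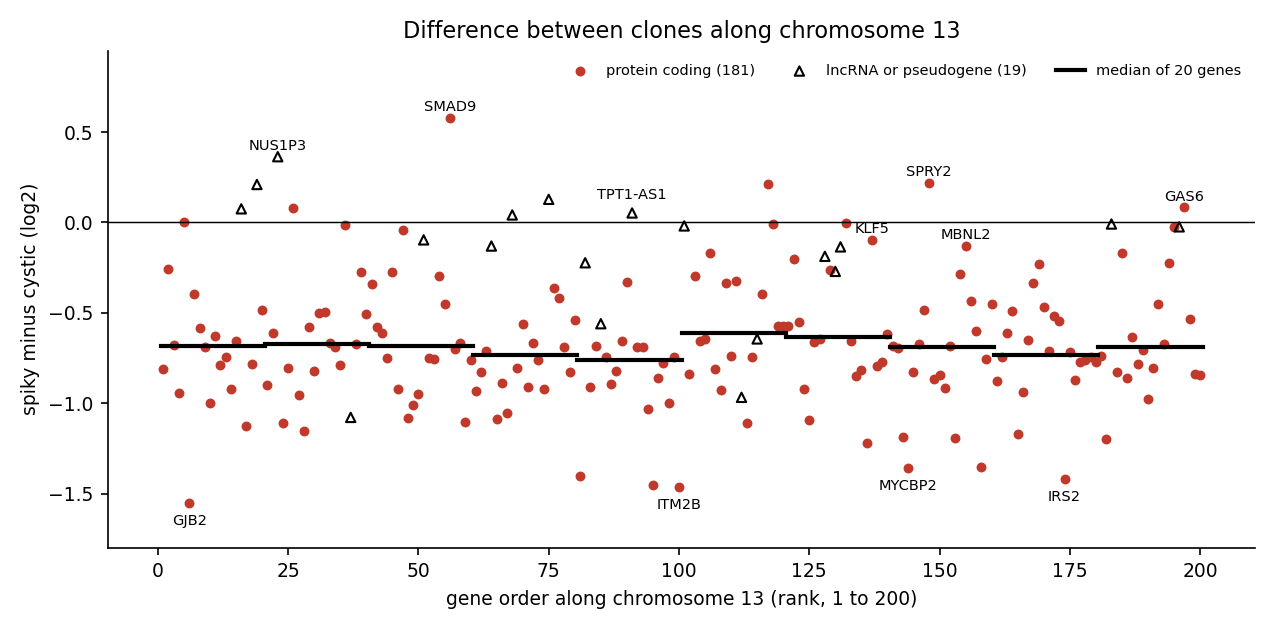
Spiky minus cystic difference (log2) of the 200 chromosome 13 genes in their order along the chromosome, 1 point per coding gene and 1 triangle per noncoding RNA or pseudogene, with black bars for the medians of 20 consecutive genes and some genes named. The bars lie between -0.76 and -0.61 along the whole chromosome, and genes at or above 0 are scattered among lower ones.

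The difference was present at every day. Its median was -0.59 at day 5, -0.79 at day 10 and -0.66 at day 15, and 163 genes (81.5%) were lower in the spiky clone at all 3 days, against 25.7% of all genes tested. Read array by array, the genes' median deviation from their own 6-array mean was -0.16, -0.31 and -0.44 on the spiky arrays of days 5, 10 and 15, against 0.39, 0.43 and 0.16 on the cystic arrays. The 3 spiky arrays all lay below the 3 cystic arrays on this measure. The 3′ to 5′ ratios of the ACTB and GAPDH control probes, whose values stand with the culture days, were also lower in the spiky clone on each day, and their part in the difference was not tested. Along the chromosome it was present from end to end. In 10 windows of 20 consecutive genes the median lay between -0.76 (LACC1 to ITM2B) and -0.61 (RB1-DT to DHRS12), and the longest stretch of consecutive genes below -0.15 ran over 27 genes, from RAP2A to ATP11A.

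**Figure D2:**
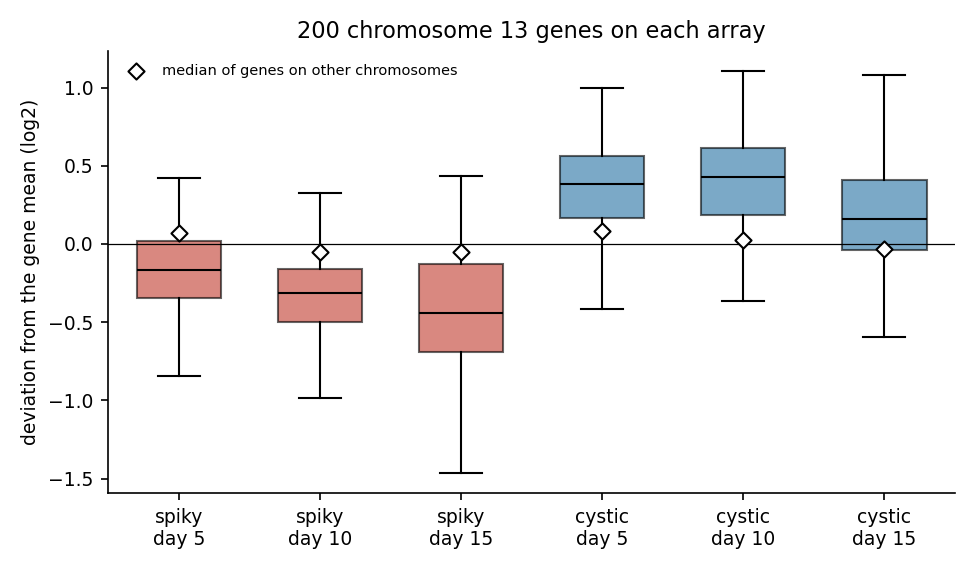
Deviation of each chromosome 13 gene from its own mean over the 6 arrays (log2), as a box per array with the spiky arrays left of the cystic arrays; boxes span the quartiles, the line is the median and whiskers reach the farthest gene within 1.5 interquartile ranges, and diamonds give the median of genes on other chromosomes. Medians of the spiky arrays run from -0.44 to -0.16 and those of the cystic arrays from 0.16 to 0.43.

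The 10 genes with the lowest differences are given array by array. GJB2, a gap junction connexin, read 5.50, 5.37 and 5.64 on the spiky arrays of days 5, 10 and 15, against 7.46, 7.19 and 6.51 on the cystic arrays, a difference of -1.55 (SE 0.23). ITM2B, a membrane protein of the secretory pathway, read 8.64, 8.57 and 9.05 in spiky colonies, against 10.24, 10.22 and 10.19 in cystic colonies, a difference of -1.46 (SE 0.12). In both genes every spiky array lay more than 0.8 below every cystic array. LCP1, an actin-bundling plastin best known from leukocytes, read 4.28, 4.32 and 4.57 against 6.31, 5.59 and 5.64 in cystic colonies, so that its spiky values all lay under the level of 5. IRS2, an adaptor of the insulin receptor, read 6.17, 4.97 and 4.80 in spiky colonies, against 6.73, 6.57 and 6.89 in cystic colonies. On this probe set its spiky day 5 value stood nearest to the cystic ones. Its other probe set with a mean of at least 5 had the widest difference at day 5, with -1.81, -1.18 and -1.05 over the days. LACC1, an enzyme of purine nucleoside metabolism described in macrophages, read 4.59, 4.81 and 5.67 in spiky colonies, against 6.47, 6.32 and 6.49 in cystic colonies. Groups did not overlap in any of these 5 genes.

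MYCBP2, a large ubiquitin ligase, read 6.82, 6.35 and 6.80 on spiky arrays, against 8.05, 7.98 and 8.0 on cystic arrays. FARP1 read 6.15, 6.31 and 6.34 in spiky colonies, against 7.47, 7.72 and 7.67 in cystic colonies. Both differences, -1.36 and -1.35, were far wider than the spread within either clone. PIBF1, a protein of the centrosome, read 6.59, 6.32 and 6.08 in spiky colonies, against 7.25, 8.05 and 7.35 in cystic colonies. ATP11A, a phospholipid flippase of the cell surface, read 7.12, 6.44 and 7.03 against 7.99, 8.07 and 8.12 in cystic colonies. DNAJC3, a co-chaperone of the endoplasmic reticulum that also inhibits the kinase PKR, read 8.35, 8.27 and 7.81 in spiky colonies, against 9.27, 9.43 and 9.31 in cystic colonies. These last 3 genes, at -1.22, -1.20 and -1.19, also had no overlap between the groups. Because LCP1 is known from leukocytes, the leukocyte marker list is given beside it. Of its 6 genes with a probe set 3 had a mean of at least 5, and its summed level (log2 of the sum) was 6.98 to 7.51 on spiky arrays and 7.50 to 7.92 on cystic arrays. In those 3 genes all spiky arrays lay below all cystic arrays, beside 10.1% of all genes tested, but by narrow margins. The closest values of the clones were 5.74 and 5.76 in CSF1R, 5.47 and 5.49 in CORO1A and 5.16 and 5.19 in CD3D. CSF1R, a receptor of macrophages, read 4.95, 4.82 and 5.74 in spiky colonies, against 6.67, 5.76 and 5.87 in cystic colonies. CORO1A, an actin regulator of leukocytes, read 5.45, 4.52 and 5.47 in spiky colonies, against 5.64, 5.49 and 6.04 in cystic colonies. CD3D, of the T cell receptor complex, read 5.16, 5.08 and 5.16 in spiky colonies, against 5.28, 5.19 and 5.22 in cystic colonies. PTPRC, the pan-leukocyte marker, read 2.77 to 3.25 on spiky and 2.68 to 2.97 on cystic arrays. Both cultures are clones of a colorectal cancer cell line, and the labels name no leukocytes in them. A signal of these genes therefore does not show that leukocytes were present. What gave the LCP1 difference was not tested.

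**Figure D3:**
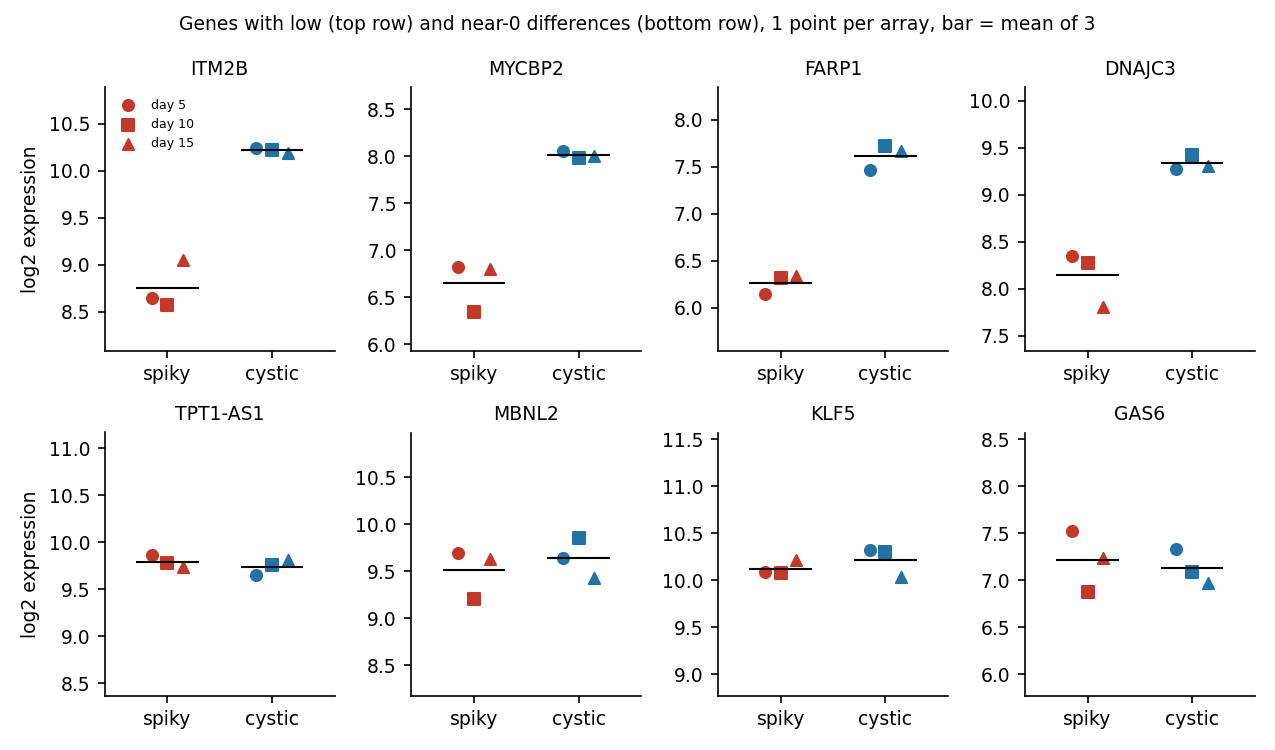
Log2 signal on each array for ITM2B, MYCBP2, FARP1 and DNAJC3 (top row) and TPT1-AS1, MBNL2, KLF5 and GAS6 (bottom row), with spiky arrays left of cystic arrays, 1 point per array (marker shape gives the day), a bar at each clone's mean and axes of equal length. In the top row all spiky points lie below all cystic points, and in the bottom row the points of the 2 clones overlap.

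The question of which genes escape the common difference has to be read with biotype and level beside it. The 181 protein-coding genes had a median of -0.71, and 6 of them lay at or above 0. The 19 genes of other biotypes (long noncoding RNAs and pseudogenes) had a median of -0.10, and 6 lay at or above 0. Level moved with biotype, with a median mean signal of 7.45 for coding genes and 5.63 for the others, and genes with a mean of 5 to 6 had a median difference of -0.32 (n = 42), against -0.66 to -0.77 in the 5 higher classes. Within one biotype or above the lowest class the values still parted: coding genes at 5 to 6 had a median of -0.40 (n = 31), and the 8 other genes with a mean of at least 6 had one of 0.06. What part low signal, cross-hybridisation or biotype had in these values was not tested.

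**Figure D4:**
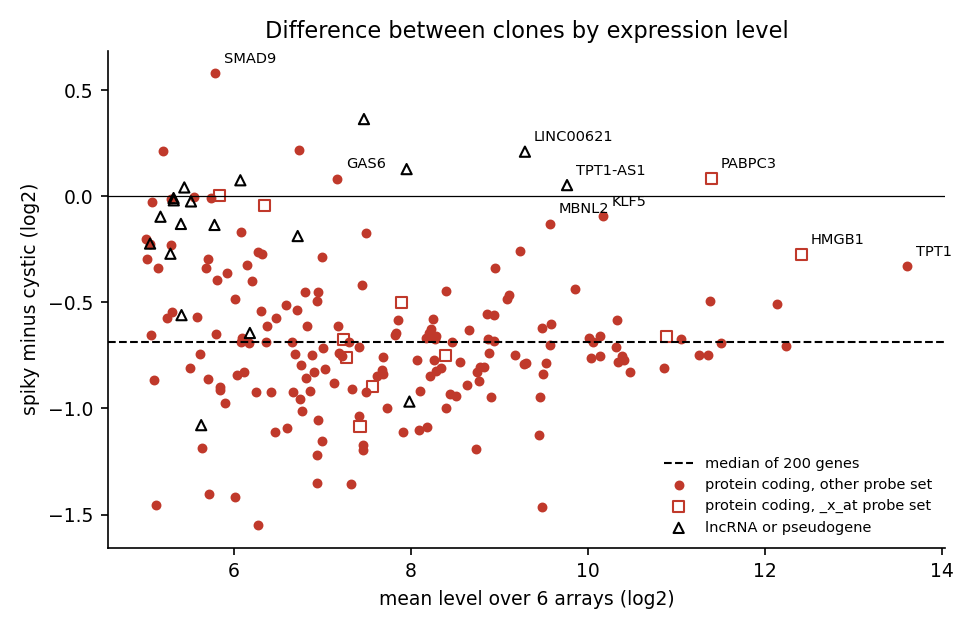
Spiky minus cystic difference (log2) of each chromosome 13 gene against its mean log2 signal over the 6 arrays, with coding genes as filled points (open squares where the probe set is of the _x_at kind), noncoding RNAs and pseudogenes as triangles and the median of the 200 genes as a dashed line. Differences close in on the common median at higher signal, and the few bright genes near 0 are named.

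Of the 12 genes at or above 0, 4 were read from _x_at probe sets (LINC00621, OR7E37P, PABPC3 and GJA3), a kind whose probes can match more than 1 transcript. Across the processing alternatives that tested each gene, 4 of the 12 stayed above 0 (SMAD9, NUS1P3, FAM124A and LINC00621) and 8 took both signs. A gene whose mean fell under the limit in an alternative was not tested there. SMAD9 and FAM124A, with means of 5.79 and 5.20, were thus not tested at a limit of 6. None of the 12 passed the test as higher, and in none were the 3 spiky arrays all above the 3 cystic arrays. The number at or above 0 was itself unsteady. It was 5 of the 163 genes that passed the limit with the mean over all probe sets of a gene. It was 20 of 200 after centring each array on its median and 20 of 201 after cyclic loess normalisation. With no filter on level it was 110 of 400 genes.

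SMAD9, a transcription factor that carries signals of bone morphogenetic protein receptors, read 5.62, 5.54 and 7.07 in spiky colonies, against 5.67, 4.94 and 5.89 in cystic colonies, a difference of 0.58 (SE 0.24). Its difference rested most on the spiky day 15 array and ranged from 0.28 to 0.90 over the alternatives that tested it. SPRY2, a feedback inhibitor of receptor tyrosine kinase signalling, read 7.32, 6.76 and 6.45 in spiky colonies, against 6.56, 6.86 and 6.47 in cystic colonies, where only the spiky day 5 array stood apart. GAS6, a ligand of the TAM receptor kinases, read 7.52, 6.88 and 7.24 on spiky arrays, against 7.33, 7.09 and 6.96 on cystic arrays, with overlapping groups and a difference of 0.08 (SE 0.16). FAM124A read 5.41, 5.33 and 5.19 in spiky colonies, against 5.37, 4.91 and 5.02 in cystic colonies, but its other probe set with a mean of at least 5 gave -0.79. PABPC3, a retrotransposed gene of the poly(A)-binding protein family, read 11.34, 11.31 and 11.65 in spiky colonies, against 11.32, 11.40 and 11.34 in cystic colonies, with groups that overlapped.

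The other genes at or above 0 are noncoding, apart from GJA3, a connexin with a difference of 0.0044. NUS1P3, a pseudogene, read 7.83, 7.80 and 7.33 in spiky colonies, against 7.42, 7.32 and 7.13 in cystic colonies. LINC00621, a long noncoding RNA, read 9.70, 9.42 and 9.06 in spiky colonies, against 9.25, 9.34 and 8.96 in cystic colonies. Both were higher in the spiky clone on each of the 3 days, by 0.36 and 0.21 on average, as was FAM124A, yet the groups of NUS1P3 and LINC00621 overlapped, the spiky day 15 value being the lowest of its clone. OR7E37P, an olfactory receptor pseudogene, read 8.14, 7.72 and 8.20 in spiky colonies, against 7.61, 8.0 and 8.06 in cystic colonies. MIPEPP3, a transcribed pseudogene, read 5.83, 6.21 and 6.30 in spiky colonies, against 5.91, 5.77 and 6.44 in cystic colonies. Its other probe sets, with means of 4.89 and 3.88 under the limit of 5, gave -1.32 and -0.80. TPTE2P5, another transcribed pseudogene, averaged 0.04 higher, with alternatives between -0.50 and 0.41.

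TPT1-AS1, the antisense neighbour of the translationally controlled tumour protein gene TPT1, was near the same level on all 6 arrays. It read 9.87, 9.77 and 9.74 on spiky arrays, against 9.66, 9.75 and 9.81 on cystic arrays, a difference of 0.05 (SE 0.10), and its 4 probe sets with a mean of at least 5 lay between -0.18 and 0.05. TPT1 itself read 13.39, 13.36 and 13.59 in spiky colonies, against 13.73, 13.76 and 13.84 in cystic colonies, without overlap and with a difference of -0.33 (SE 0.04). Its 5 probe sets lay between -0.37 and -0.28, and 4 of them are of the _x_at kind. The pair starts from opposite strands of the same stretch of DNA, shown here because both transcripts were read well above the limit and their differences parted; the 250 bases before each start share 161 bases. In these and the next windows capitals mark the GC box GGGCGG, the CCAAT box CCAAT and the TATA box TATAAA, each searched on both strands, from RefSeq promoters of GRCh38.p14.
TPT1-AS1, chr13:45341095-45341344, plus strand: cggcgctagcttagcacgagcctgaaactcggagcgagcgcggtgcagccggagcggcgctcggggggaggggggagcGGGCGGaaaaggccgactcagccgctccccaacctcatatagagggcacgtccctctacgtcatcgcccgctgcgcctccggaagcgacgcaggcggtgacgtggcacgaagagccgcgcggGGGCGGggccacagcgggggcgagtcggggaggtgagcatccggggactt
TPT1, chr13:45341184-45341433, minus strand: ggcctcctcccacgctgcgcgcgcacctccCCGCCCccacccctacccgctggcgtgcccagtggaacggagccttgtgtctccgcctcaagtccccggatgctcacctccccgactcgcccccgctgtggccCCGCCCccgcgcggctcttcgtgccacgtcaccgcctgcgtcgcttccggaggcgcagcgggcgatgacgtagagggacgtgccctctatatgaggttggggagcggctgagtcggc
Each window held 2 GC boxes, with neither of the other motifs. Over all 35116 RefSeq promoter windows of this length 42.6% held a GC box, 32.0% a CCAAT box and 10.7% a TATA box, and over the 255 windows of the 173 members with an entry the shares were 56.9%, 30.6% and 7.84%. A match is a description of letters and not of binding.

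Antisense and divergent partners of other coding genes were set beside those genes. RB1-DT, divergent from RB1, differed by -0.02 where RB1 differed by -0.84. The RB1-DT value averaged unlike days, with 0.45, 0.33 and -0.83 at days 5, 10 and 15. ATP11A-AS1 differed by -0.01 against -1.20 for ATP11A, whose 6 probe sets with a mean of at least 5 lay between -1.20 and -0.53. N4BP2L2-IT2 differed by -0.10 against -0.95 for its host N4BP2L2. DIAPH3-AS1 differed by -0.19 and DIAPH3 by -0.65, so in these 4 pairs the noncoding partner lay closer to 0 on average over the days. The other 3 also averaged unlike days. ATP11A-AS1 had 0.41, -0.08 and -0.36 at days 5, 10 and 15, and N4BP2L2-IT2 had 0.43, -0.35 and -0.37. DIAPH3-AS1 had -0.78, -0.08 and 0.29, against -0.52, -0.94 and -0.47 for DIAPH3. Both partners were low in others: TSC22D1-AS1 was at -0.56 with TSC22D1 at -0.68 and PAN3-AS1 at -1.08 with PAN3 at -0.67. RB1-DT, ATP11A-AS1 and N4BP2L2-IT2 had means of 5.32, 5.32 and 5.17, close to the limit of 5, and DIAPH3-AS1 one of 6.72. TSC22D1-AS1 and PAN3-AS1 had means of 5.41 and 5.63. The part of low signal in these pairs was not tested. Labelled RNA strands and probe strands were not checked here, so that partners that overlap cannot be told apart with certainty.

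Among coding genes measured well, escape was rare. Of the 99 coding genes with a mean of at least 7 on a probe set other than _x_at, the median was -0.75 with an interquartile range of 0.20, and 1 gene, GAS6, lay at or above 0. The next were chosen for description after their values were seen: KLF5 at -0.09, MBNL2 at -0.13, the coagulation factor gene F7 at -0.17, the paraspeckle protein gene PSPC1 at -0.26 and UGGT2, a glycoprotein folding sensor, at -0.28. KLF5 read 10.08, 10.08 and 10.21 on spiky arrays, against 10.32, 10.30 and 10.04 on cystic arrays, so that the spiky clone was lower at days 5 and 10 and higher at day 15. MBNL2, a splicing regulator, read 9.69, 9.21 and 9.63 in spiky colonies, against 9.64, 9.86 and 9.42 in cystic colonies, with the spiky value lower at day 10 alone. Its 5 bright probe sets lay between -0.13 and 0.11, those of KLF5 between -0.20 and -0.09 and those of GAS6 between -0.09 and 0.08. The values of PSPC1 and UGGT2 came from the probe set nearest to 0. The 5 bright probe sets of PSPC1 lay between -1.31 and -0.26, with 3 of them below -1, and the 4 of UGGT2 between -0.72 and -0.28.

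KLF5 is set between PIBF1 at -1.22 and KLF12 at -0.80, so a gene near 0 lay next to some of the lower ones. Its 2 RefSeq start sites and that of DNAJC3, with a difference of -1.19, are printed to show a gene near 0 and 1 of the 10 lowest.
KLF5 window 1, chr13:73054726-73054975, plus strand: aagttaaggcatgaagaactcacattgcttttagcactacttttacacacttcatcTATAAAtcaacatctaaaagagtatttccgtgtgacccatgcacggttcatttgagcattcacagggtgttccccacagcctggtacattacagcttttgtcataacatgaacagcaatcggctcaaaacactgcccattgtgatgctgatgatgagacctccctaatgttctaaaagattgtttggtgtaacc
KLF5 window 2, chr13:73058755-73059004, plus strand: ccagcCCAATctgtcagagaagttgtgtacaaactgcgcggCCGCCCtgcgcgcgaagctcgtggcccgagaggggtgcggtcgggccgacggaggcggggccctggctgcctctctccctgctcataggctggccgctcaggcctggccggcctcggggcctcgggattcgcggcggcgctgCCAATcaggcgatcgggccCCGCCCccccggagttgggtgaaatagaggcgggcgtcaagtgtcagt
DNAJC3, chr13:95676889-95677138, plus strand: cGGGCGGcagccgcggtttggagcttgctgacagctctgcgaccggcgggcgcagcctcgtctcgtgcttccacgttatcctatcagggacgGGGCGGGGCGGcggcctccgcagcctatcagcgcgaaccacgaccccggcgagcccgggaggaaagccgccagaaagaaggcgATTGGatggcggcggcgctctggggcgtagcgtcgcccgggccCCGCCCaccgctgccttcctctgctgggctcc
The first KLF5 window held a TATA box and no GC box, at 40.8% G and C, and the second held 2 GC boxes and 2 CCAAT boxes at 70.8%. The DNAJC3 window held 4 GC boxes and 1 CCAAT box at 72.4%. GC box matches that overlap each other, as in DNAJC3, were counted singly.

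Some near-0 genes stood beside others. GAS6, its antisense RNA GAS6-AS1 (-0.02) and ATP4B (-0.03), a subunit of the gastric proton pump, follow each other near the end of the chromosome. GAS6-AS1 and ATP4B had means of 5.52 and 5.08, close to the limit of 5, and the other bright probe set of ATP4B gave -0.24. FAM124A is next to INTS6, an Integrator subunit at -0.01. The INTS6 reading depended on the probe set, since its other bright one gave -0.64. HMGB1, a chromatin architectural protein, likewise gave -0.27, -0.31 and -0.49 on its 3 _x_at probe sets and -0.70 and -1.07 on the other 2. Over the whole chromosome, 223 further bright probe sets of 118 genes had a median of -0.68, with 218 below 0 and 5 at or above 0. In 8 of these 118 genes every bright probe set lay above -0.3.

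Grouped by role, the genes differed little in the median. The role lists were drawn up with results of these data known, and a gene can be in more than one. They are rough groupings, and a place in a list does not establish a gene's role. The medians are set beside -0.03 for all genes tested, and counts called lower beside 7.74% of them. Of 27 genes of the cell cycle and DNA repair the median was -0.75 and 21 were called lower, among them RB1, which read 7.25, 7.46 and 7.11 in spiky colonies, against 8.24, 8.47 and 7.63 in cystic colonies. CUL4A, a scaffold of ubiquitin ligases that act in DNA repair, and TFDP1, the partner of E2F factors, differed by -0.78 and -0.67. PARP4, the poly(ADP-ribose) polymerase of vault particles, stood at -1.11, and the highest of this list were HMGB1 at -0.27 and BIVM at -0.23.

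Of 23 transcription and chromatin genes the median was -0.74 and 17 were called lower. FOXO1, a transcription factor restrained by insulin signalling, read 7.71, 7.38 and 7.85 in spiky colonies, against 9.10, 9.02 and 8.08 in cystic colonies, with the cystic day 15 array closest to the spiky ones. POLR1D, a subunit of RNA polymerases I and III, read 8.94, 8.86 and 8.86 against 9.68, 9.65 and 9.70 in cystic colonies, and hardly varied within either clone. SUPT20H, of the SAGA coactivator, stood at -1.10. Of 27 genes of RNA processing and translation the median was -0.70 and 24 were called lower, with the nucleoporin NUP58 at -1.15 and DIS3, a ribonuclease of the exosome, at -0.82.

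Of 24 mitochondrial and metabolic genes the median was -0.78 and 20 were called lower. SUCLA2, a subunit of succinyl-CoA synthetase, read 8.18, 8.0 and 7.52 in spiky colonies, against 9.0, 9.25 and 8.44 in cystic colonies, and CRYL1, an enzyme of the uronate cycle, at -0.40 was among the highest of the list. Of 23 ubiquitin and proteasome genes the median was -0.69 and 15 were called lower, with KLHL1, an adaptor gene best known from neurons, at -0.0031. Of 25 kinase, receptor and signalling genes the median was -0.69 and 12 were called lower. CDK8 read 7.63, 7.08 and 7.08 in spiky colonies, against 8.23, 8.04 and 7.99 in cystic colonies, without overlap. LATS2, a Hippo pathway kinase, differed by -0.79 and STK24, a kinase of the germinal centre family, by -0.75.

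Of 15 genes of epithelial transport, adhesion and matrix the median was -0.68 and 10 were called lower. ABCC4, an efflux pump for cyclic nucleotides and prostaglandins, and LMO7, a junction-associated protein, differed by -0.68 and -0.69. Of 24 genes of the cytoskeleton and membrane traffic the median was -0.75 and 21 were called lower, with NBEA and VWA8 the highest at -0.30 and -0.36. The 49 genes in no list had a median of -0.54, and 19 were called lower. Of the fixed genes, CDX2, COL4A1, COL4A2 and SLC15A1 had means of 4.80, 3.32, 4.10 and 3.51 and are therefore not among the 200, and BRCA2 and RPL21 had no single-symbol probe set in the annotation. NEK5 and RCBTB2, each with a mean of 5.02, were the last genes inside the limit, and DOCK9-DT and GUCY1B2, each at 4.99, the first outside.

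The comparison of culture days does not use the values that picked the chromosome and can be tested. Between day 15 and day 5, with colony shape in the limma model, 54 of the 200 genes (27%) fell, beside 21.9% of all genes tested, and 14 (7%) rose, beside 10.4%. The median change was -0.22, against -0.11 over all genes tested. It was -0.28 within the spiky clone, where all genes had -0.12, and -0.19 within the cystic clone, where all genes had -0.11. Day differences had the same sign in both clones in 151 of the 200 genes. This was not counted over all genes tested, so it cannot be read as particular to these genes. Between day 15 and day 10, 40 genes fell (20%, beside 14%) and 7 rose (3.5%, beside 8.66%). Between day 10 and day 5, limma called 0 genes in either direction, beside 0.00812% each way of all genes tested. At an unadjusted p under 0.05, 13 were lower and 6 higher, beside 1158 and 500 of all 12317 genes tested.

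These counts leaned on the day 5 arrays, as did the counts over all genes tested. Without the spiky day 5 array 4 genes fell and 4 rose between day 5 and day 15, and without the cystic day 5 array 30 fell and 5 rose. The log2 ratio of 3′ to 5′ ACTB control probes, a measure of RNA integrity and labelling, was 2.73, 2.74 and 3.10 on the spiky arrays of days 5, 10 and 15 and 2.83, 3.18 and 3.28 on the cystic arrays, so that it was highest at day 15 in both clones. The same ratio for GAPDH was 0.60, 0.63 and 0.49 on the spiky arrays and 0.65, 0.79 and 0.63 on the cystic arrays, with no such order by day. The part of RNA quality in the day differences was not tested.

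The 6 genes that fell most have different known roles. SKA3, a kinetochore protein, read 7.02, 6.53 and 5.08 in the spiky clone at days 5, 10 and 15, and 7.66, 7.67 and 6.08 in the cystic clone, and fell by 1.76 between days 5 and 15 (SE 0.21, adjusted p = 0.00091, limma). DIAPH3, a formin that builds actin filaments, read 8.01, 7.64 and 6.88 in the spiky clone and 8.53, 8.58 and 7.35 in the cystic clone (-1.16, SE 0.18, adjusted p = 0.00232, limma). In both genes the day 15 arrays of both clones lay below all others of the same clone. SLC25A15, the ornithine carrier of mitochondria, fell by 1.47 (adjusted p = 0.00405, limma). TGDS, a nucleotide-sugar dehydratase, fell by 1.23 (adjusted p = 0.0041, limma). NUFIP1, an assembly factor of small nucleolar ribonucleoproteins, and TRIM13, a ubiquitin ligase of the endoplasmic reticulum, each fell by 1.16 (adjusted p = 0.00478 and 0.0042, limma). By list, 10 of 27 cell cycle and repair genes fell and 3 rose, read beside 21.9% falling and 10.4% rising of all genes tested. Among RNA processing genes 12 of 27 fell and 2 rose, and among mitochondrial and metabolic genes 10 of 24 fell and 0 rose. Of transcription and chromatin genes 8 of 23 fell and 1 rose, and of ubiquitin and proteasome genes 7 of 23 fell and 2 rose. Of kinase, receptor and signalling genes 6 of 25 fell and 1 rose, and of epithelial transport, adhesion and matrix genes 3 of 15 fell and 1 rose. Of cytoskeleton and membrane traffic genes 5 of 24 fell and 4 rose, and of the 49 genes in no list 6 fell and 4 rose.

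Of the genes that rose, ANKRD10 changed in parallel in both clones, with 10.68, 10.61 and 11.64 in the spiky clone and 11.27, 11.59 and 12.32 in the cystic clone (1.0, SE 0.10, adjusted p = 0.000571, limma). CCDC70 read 4.14, 5.14 and 6.61 in the spiky clone and 5.10, 5.83 and 6.66 in the cystic clone (2.02, SE 0.26, adjusted p = 0.00114, limma), so its day 15 values were the highest of each clone. LMO7 read 10.88, 11.07 and 11.51 in the spiky clone and 11.54, 11.78 and 12.22 in the cystic clone (0.66, adjusted p = 0.000773, limma). KCTD12, an auxiliary subunit of GABA-B receptors, rose by 1.10 (adjusted p = 0.0108, limma). NEK5, a kinase of the NIMA family, TUBGCP3, a component of the gamma-tubulin ring complex, and BIVM rose by 0.91, 0.76 and 0.72 (adjusted p = 0.0361, 0.0206 and 0.0355, limma). TUBGCP3 had -0.13 instead of 0.76 when all its probe sets were averaged. Of the 12 genes with the largest changes by day in the same direction in both clones, 4 (SKA3, CCDC70, ANKRD10 and NEK5) still passed without the spiky day 5 array and 9 without the cystic day 5 array. Without the cystic day 15 array, and likewise without the spiky day 15 array, 10 still passed. NEK5 did not pass without the cystic day 5 array, without the cystic day 15 array, with no filter on level or without the eBayes trend. BIVM did not pass without either day 5 array, without the spiky day 15 array or with no filter on level. TGDS and TRIM13 did not pass with the mean over all probe sets, nor TRIM13 when probe sets other than _x_at and _s_at were preferred. TPT1 rose by 0.16 (adjusted p = 0.0473, limma), HMGB1 fell by 0.34 (adjusted p = 0.00529, limma) and ABCC4 by 0.96 (adjusted p = 0.00251, limma).

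**Figure D5:**
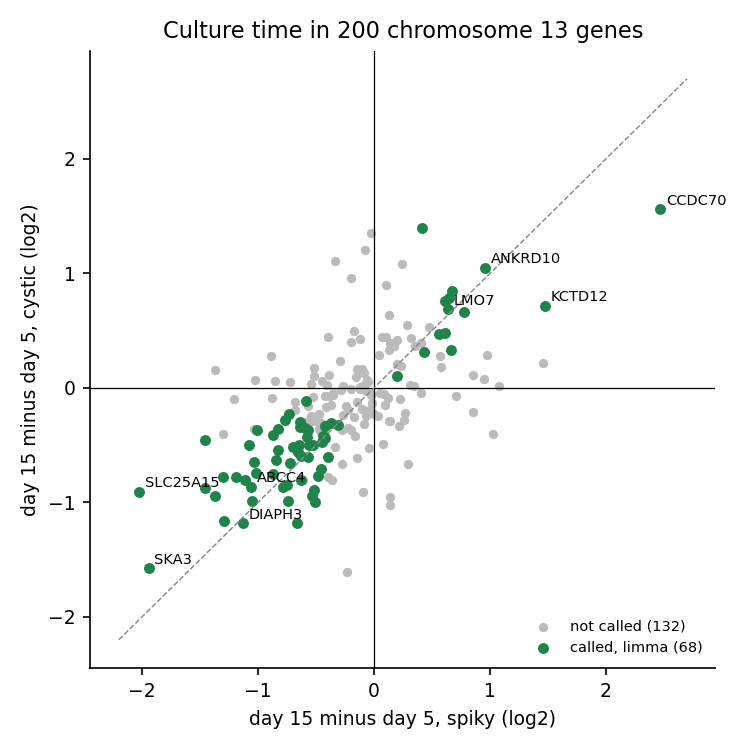
Change between day 15 and day 5 (log2, day 15 minus day 5) of each chromosome 13 gene in the spiky clone (horizontal axis) and in the cystic clone (vertical axis). Green points passed the limma test over both clones, the dashed line marks equal change, and 8 genes are named. Of the 200 genes, 151 lie in the quadrants where both clones have the same sign, a count not made over all genes tested.

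Whether the clones' difference itself changed over the culture was tested with an interaction of clone and day. For none of the 200 genes did this slope difference pass in limma (0 called, beside 0% of all genes tested each way). At an unadjusted p under 0.05, 3 were lower and 3 higher, beside 147 and 162 of all 12317 genes tested. The largest were KLF12, a transcriptional repressor, at 1.43 per 10 days, RCBTB2 at 1.38 and SMAD9 at 1.24, and, in the other direction, IRS2 at -1.53, TPTE2P5 at -1.44 and KCTD4 at -1.37, each with an adjusted p of 0.999 (limma). KLF12 read 5.79, 6.47 and 6.82 in the spiky clone and 7.47, 6.94 and 7.06 in the cystic clone. On this probe set the clones stood closest at day 15. Another bright probe set of KLF12 gave differences of -1.53, -0.62 and -0.44 at days 5, 10 and 15, and a further one -1.30, -1.21 and -1.21. For IRS2 the probe set used gave -0.57, -1.59 and -2.09 at these days. Its other bright one ran the other way, at -1.81, -1.18 and -1.05. A p that misses the threshold does not show that the difference between the clones was constant.

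The identity of the cultures was checked on marker lists. Of 12 colon epithelial markers 6 had a mean of at least 5, with EPCAM at 11.77 and KRT18 at 12.35, while KRT20 at 2.74, CDX1 at 4.79 and CDX2 lay below it. Fibroblast markers reached 5 in 2 of 9 genes, leukocyte markers in 3 of the 6 with a probe set, and endothelial markers in 0 of 4. The summed level of the fibroblast markers was 7.93 to 8.51 on spiky arrays and 8.01 to 8.84 on cystic arrays. Both cultures are clones of a cancer cell line, and a marker's signal does not show that cells of its type were present. The part of these markers in the differences described here was not tested.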

How the data were processed

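The authors deposited log2 expression values of 54675 probe sets on 6 arrays, summarised by RMA per the submitters' processing notes, with no version given in the sources used here. RMA makes the arrays' distributions alike, so a shift of all genes would not show, and a shift of many genes moves the rest slightly. A platform table gave 41097 probe sets 1 symbol, 1801 several and 11777 none, and 41043 matched RefSeq, whose GRCh38 table placed the genes. It placed 401 genes with such probe sets on chromosome 13, and 29 more were only on probe sets of several symbols and were not used here.

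From the deposited log2 values, limma 3.58.1 (R 4.3.3) fitted clone with culture day as a factor, and eBayes with trend. Two-sided p-values were adjusted by Benjamini and Hochberg over 12317 genes at a threshold of 0.05. The slope model used clone by day as a number. Scripts were tested on simulated data.

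Arrays of the same day in the 2 clones share a day by the labels, and day is in the model. The 200 genes, the role lists and the rules were chosen with earlier results of these data known. Named genes are those at or above 0, the 10 lowest, the 2 lowest and 2 highest per role list, the 6 largest day changes each way, the 3 largest slope differences each way, fixed genes of interest and the genes at the limit. Others were named after their values were seen. Alternatives changed the filter, the probe set rule, the normalisation, the eBayes trend, the model and left out each array.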

Additional observations from a re-analysis of the deposited data

How the results depend on the processing

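The genes' median of -0.69 kept its sign under every alternative run, and lay between -0.72 and -0.63 when 1 array was left out; without the filter on level, over 400 genes, it was -0.26. Genes at or above 0 numbered 12 of 200, against 110 of 400 with no filter and 5 of 163 with the mean over all probe sets. They numbered 20 of 200 with each array centred on its median, 20 of 201 with cyclic loess and 12 to 18 without 1 array. Genes called lower in the spiky clone ranged from 74 to 134 without 1 array, those called higher from 0 to 0. With culture day left out, the block that pairs arrays of one day, 6 were called lower, beside 72 of all 12316 genes called in either direction. For day 15 minus day 5, genes called higher were 14 of 200 in the main run. They were 9 of 400 with no filter, 8 of 163 with the mean over probe sets and 9 of 200 without the eBayes trend. Genes called lower were 35 of 163 with the mean over probe sets, against 54 of 200. With colony shape left out of the model 0 fell and 1 rose, beside 1457 of all 12316 genes tested called in either direction. Without 1 array, 4 to 58 fell and 4 to 17 rose, and the slope difference had 0 to 0 calls. TUBGCP3 changed sign, to -0.13, with the mean over probe sets. Of the single-gene values by day, 128 kept their side of the threshold and 32 lost it. The cause of these changes was not tested. Precision is limited by 1 array per clone and day, and no detection calls or background signals were used here, so values near 5 may hold little specific signal.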
